A study of Mus musculus with 12 samples.

Results

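A lung metastasis of NR-S1, a transplantable squamous cell carcinoma of the mouse, taken from a mouse whose primary tumour had received carbon ions, was compared with an unirradiated primary NR-S1 tumour on 2 of the 12 arrays of the series. These are all the arrays labelled with that pair of RNAs, and they form a dye swap: the metastasis was labelled with Cy5 on one array and with Cy3 on the other. The series holds 6 RNAs in all, from primary tumours and from lung metastases of animals whose leg tumour was unirradiated, gamma-irradiated or carbon-irradiated, each labelled as 1 RNA per condition. Ratios below are metastasis over primary.

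Both tumours grew in male C3H mice, written C3H/HeMsNrs in the sample labels and C3H/HeNrs in the text on the series. The tumour had been transplanted into the hind leg. For the carbon-group metastasis, the leg tumour was given 5 Gy of carbon ions when its diameter reached 7.5 mm, and the lung was sampled 2 weeks later. The radiation was applied to the primary, so the metastasis is the lung tumour of an animal with an irradiated leg tumour. The unirradiated primary came from the leg 1 week after the same diameter, and primaries were grown in other mice than metastases. Site, time after 7.5 mm and irradiation of the leg tumour therefore changed together and cannot be told apart in this pair. Tumour cells of each were cut out by laser microdissection, their RNA was amplified linearly, and both are labelled clone 1. With 1 RNA on each side no difference here has a replicate check and no p-value is given. The ± values are the SD over the 2 dye orientations, which covers array and dye error and leaves out the spread between animals.

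Squamous cell carcinoma is a tumour of keratinocyte-like cells, held together by desmosomes and filled with keratins such as Krt5 and Krt14. In the lung, such a tumour grows among alveoli lined by surfactant-producing and gas-exchanging cells, airways lined by secretory and ciliated cells, a dense capillary bed and resident macrophages; in the leg it grows among skeletal muscle fibres. Interferons switch on a shared set of antiviral and antigen presentation genes through shared transcription factors, in tumour cells and in host cells alike.

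On both arrays together 16283 genes were measured, meaning that on each array at least 1 of the 2 RNAs lit the probe well above background. A gene was called where it differed at least 2-fold (1 on the log2 scale) in the same direction on both arrays. By that rule 1336 genes, or 8.2%, rose in the carbon-group metastasis and 168 genes, or 1.03%, fell. The median ratio over all measured genes was 0.06 on the log2 scale, and 62.8% of genes lay within 0.5 of equality on both arrays. The median SD between orientations was 0.129, and 11 genes were past 2-fold in opposite directions on the arrays, following the dye and not the RNA. At 4-fold on both arrays 396 genes were higher and 47 lower, and at 16-fold 37 were higher and 3 lower. Of the 1336 genes that rose, 198 were not well above background in the primary on either array. No spot was saturated, and each channel had 55.6% to 65.4% of its spots well above background. Where genes are said below to be well above background in both RNAs, this refers to these 2 arrays alone.

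**Figure D1:**
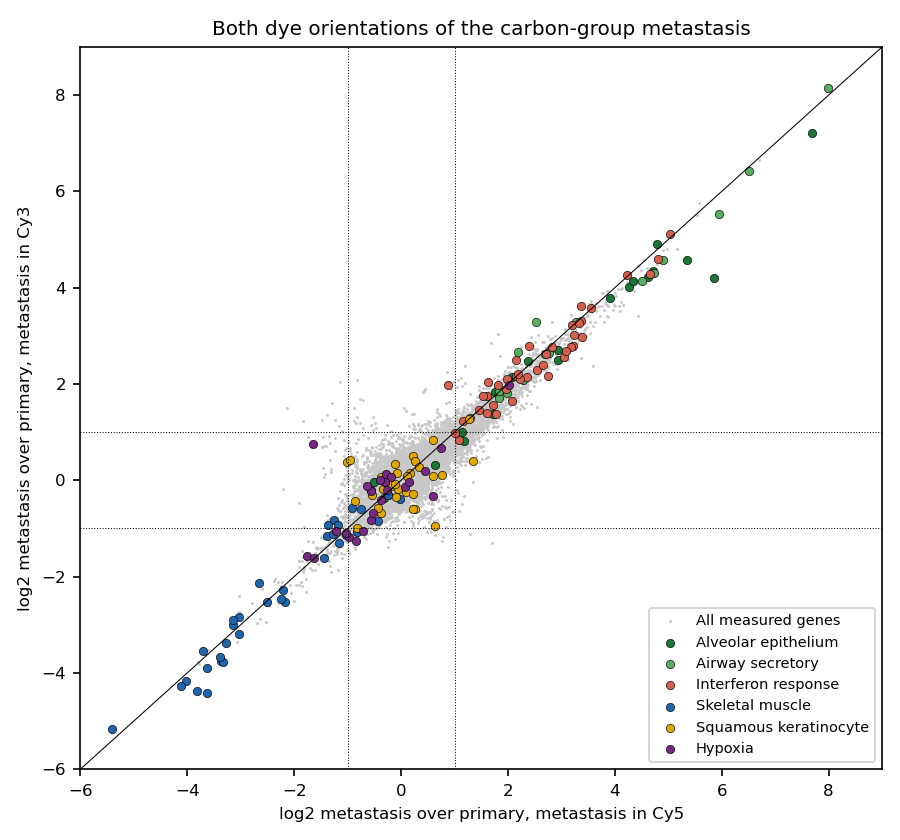
Log2 ratio of the carbon-group metastasis over the unirradiated primary for each measured gene, with the metastasis in Cy5 on the x axis and in Cy3 on the y axis; dotted lines mark 2-fold, the solid line equal ratios, and coloured points the members of 6 gene lists. Lung epithelial and interferon genes lie at the upper right, skeletal muscle genes at the lower left, and keratinocyte genes within 1 of 0 on at least 1 array except Sprr1a, which was higher on both.

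Markers of lung epithelium rose, and several of them, such as Scgb3a2 and Sftpd, were among the genes with the highest ratios, beside others such as the complement gene Hc and the interferon gene Iigp1. Of 21 alveolar marker genes, all of them well above background in both RNAs on these arrays, 15 rose. None fell, and the median was 2.73 on the log2 scale. On the arrays of the carbon-irradiated primary, which carry the same unirradiated primary RNA, 12 of the 21 counted as measured. Sftpa1, Sftpb and Sftpc did not, so their level in the primary and the size of their ratios are poorly fixed. Of 17 airway secretory genes 16 were measured and all 16 rose, with a median of 2.81. Of those 16, 5 were below background in the primary on both arrays and so could be measured only by being higher in the metastasis. The other 11 were well above background in both RNAs on these arrays and had a median of 4.33. On the arrays of the carbon-irradiated primary 6 of the 17 counted as measured, without Scgb3a2 and Scgb1a1. The median of the 11 is therefore no separate check on the rise. With the 5 genes below background in the primary set at their bounds the median of the 16 was 2.77. Each RNA was measured as a whole from microdissected tumour cells, so more cells of a type and more RNA per cell cannot be told apart. Which cells in the cut material carried these transcripts was not tested.

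Sftpa1, which encodes surfactant protein A, gave normalized signals of 33926 (Cy5) and 33977 (Cy3) in the carbon-group metastasis, against 1426 and 835 in the unirradiated primary. Signals are in arbitrary units after background correction and dye normalization, and serve only to set the RNAs side by side for one probe. Sftpa1 rose by 4.96 ± 0.54, and the signals of the RNAs did not overlap. Sftpb, encoding surfactant protein B, gave 2342 and 2561 in the metastasis, against 451 and 304 in the primary, and rose 6.61-fold (2.73 ± 0.31). The surfactant gene with the brightest probe of the list, Sftpc, read 338860 and 718820 in the metastasis, against 39256 and 5818 in the primary, so its size is poorly fixed: the 2 orientations gave 5.86 and 4.19. Other genes of surfactant-making cells that rose were the lamellar body protease gene Napsa (4.53), the phosphate transporter gene Slc34a2 (3.85) and the lung transcription factor gene Nkx2-1 (2.82). Abca3, which loads surfactant lipid, missed the call at 1.00 ± 0.26.

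Genes of the flat gas-exchange cells split. Ager, the receptor for advanced glycation end products, rose by 4.42. Clic5, a chloride channel family gene, gave 3453 and 3038 in the metastasis, against 102 and 125 in the primary, and rose by 4.85 ± 0.08, with another of its probes at 3.55. The water channel gene Aqp5 and the podoplanin gene Pdpn were close to equal, at -0.28 and -0.27, and both were well above background in the primary on both arrays. Summed over the alveolar list, signal was 588780 and 962450 in the metastasis, against 140390 and 103910 in the primary.

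Among airway genes, the secretoglobin gene Scgb3a2 had the highest ratio of any gene with a plain symbol, with signals of 39125 and 39779 in the metastasis, against 140 and 154 in the primary. Scgb1a1, which encodes the main secreted protein of club cells, gave 99458 and 121100 in the metastasis, against 2637 and 1617 in the primary. Cyp2f2, a club cell cytochrome P450, gave 19200 and 18466 in the metastasis, against 775 and 646 in the primary, and rose 26.6-fold (4.73 ± 0.23). On these arrays both RNAs therefore read well above background for these transcripts, in very unequal amounts. On the arrays of the carbon-irradiated primary Scgb3a2 and Scgb1a1 did not count as measured, although the same unirradiated primary RNA was used. Whether that RNA contained Scgb3a2 and Scgb1a1 is therefore not settled. In the carbon-irradiated leg primary over the same unirradiated primary, 5 of 6 measured airway genes also rose, with a median of 2.19 and Cyp2f2 at 4.54. None of 12 measured alveolar genes was called there, with a median of 0.17. A gene dim in the unirradiated primary could be measured there only through the carbon-irradiated primary, so the filter favoured genes that rose. The share called among all genes is not given for that comparison. The lipid-binding gene Sec14l3 rose by 6.46 ± 0.06 on its brightest probe, while its other probes gave 1.52, 3.31 and 3.47. Pigr, the receptor that carries antibodies across epithelia, and the airway lubricant gene Bpifa1 were well above background only in the metastasis, at least 5-fold and at least 6.13-fold higher. The mucin gene Muc5b was at least 3.4-fold higher on the same ground.

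Motile cilia genes were less uniform: 9 of 17 measured members rose, with a median of 1.19. Of the 17, 6 were below background in the primary on both arrays. Among the 11 well above background in both RNAs 8 rose, with a median of 1.91. On the arrays of the carbon-irradiated primary 8 of the 20 cilia genes counted as measured, so that median is no separate check. Foxj1, the master regulator of motile cilia, gave 871 and 1133 in the metastasis, against 160 and 113 in the primary, and rose 7.36-fold (2.88 ± 0.09). Dynlrb2, a dynein light chain gene, rose by 3.57 ± 0.21, and the axoneme gene Lrrc23 rose by 3.74 ± 0.30. The large axonemal dynein gene Dnah5 was dim, at 118 and 98 in the metastasis and below background in the primary, and was at least 1.44-fold higher.

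**Figure D2:**
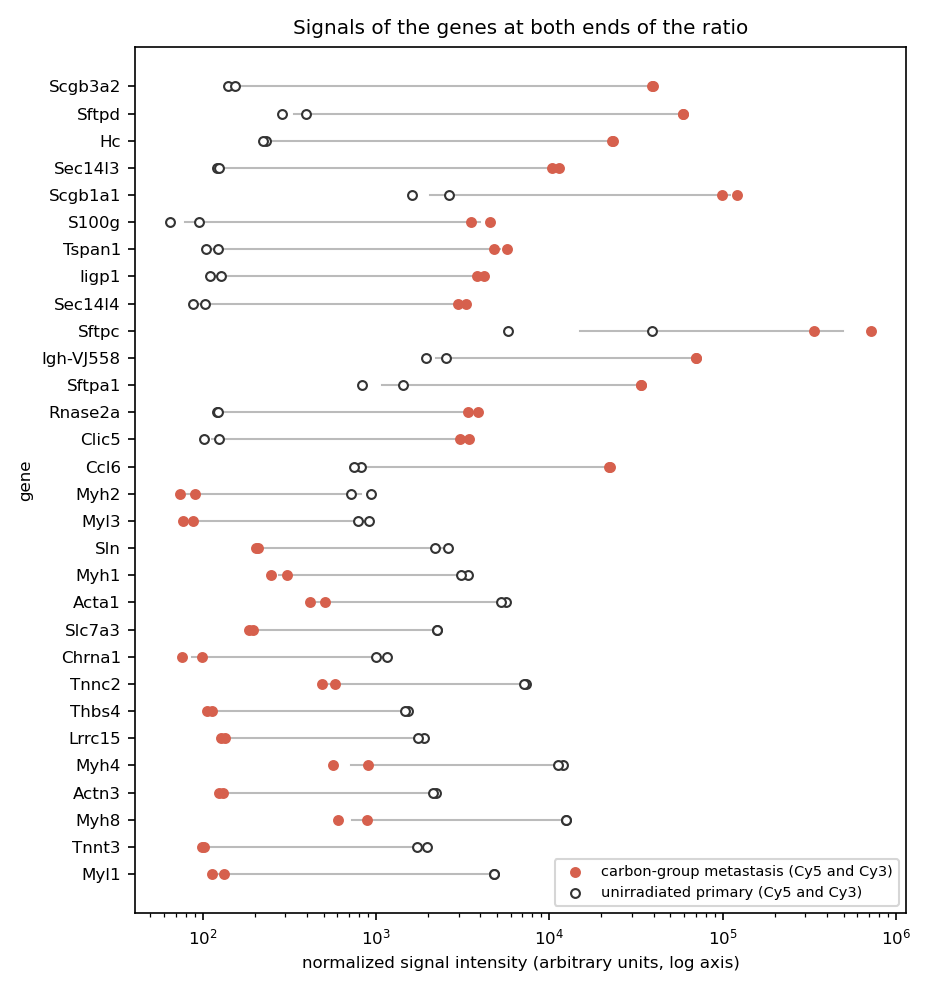
Normalized signal (log axis, arbitrary units) of the 15 highest and 15 lowest called genes with plain symbols, with a filled point for each array of the carbon-group metastasis and an open point for each array of the unirradiated primary; lines join the means of the RNAs. The RNAs do not overlap for any of these 30 genes, and Sftpc shows the widest gap between the orientations.

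Endothelial genes were also higher: 17 of 28 rose, none fell, and the median was 1.63. Vwf, the clotting factor stored in endothelial cells, gave 3077 and 2803 in the metastasis, against 378 and 348 in the primary, and rose 8.1-fold (3.02 ± 0.18). Calcrl, the adrenomedullin receptor gene, rose by 2.74 ± 0.01, and the junctional cadherin gene Cdh5 rose by 2.06 ± 0.16. Pecam1 missed the call with 0.68 on one array and 1.19 on the other. Car4, a carbonic anhydrase of lung capillaries, was well above background only in the metastasis and at least 4.3-fold higher there. Ednrb, an endothelin receptor, was at -0.96 and not called.

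Stromal genes moved in opposite directions. Of 25 fibroblast and matrix genes 6 rose and 4 fell, with a median of 0.16, and the main fibrillar collagens Col1a1 (-0.36 ± 0.21) and Col1a2 (-0.27 ± 0.25) were close to equal. Lrrc15, a membrane protein of activated fibroblasts, gave 128 and 134 in the metastasis, against 1891 and 1757 in the primary, and was 13.9-fold lower (-3.80 ± 0.03); its other probe gave -1.15. The fibroblast protease gene Fap (-1.24) and Cthrc1 (-1.28), a secreted collagen triple helix protein gene, fell too; the call of Fap was lost with median centring in place of loess and with scaling between arrays. Inmt, a methyltransferase gene abundant in lung, gave 3262 and 3289 in the metastasis, against 313 and 222 in the primary, and rose 12.4-fold (3.63 ± 0.34). The elastin gene Eln rose by 2.17 ± 0.03, and the lung mesenchyme transcription factor gene Tcf21 was at least 2.31-fold higher, being above background only in the metastasis. Smooth muscle genes were nearly level: 1 of 13 rose, the myosin light chain kinase gene Mylk (2.07), and the smooth muscle actin gene Acta2 was at -0.06 ± 0.18.

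Leukocyte genes rose in part. Of 24 macrophage genes 11 rose and none fell, with a median of 0.94. Marco, a scavenger receptor of alveolar macrophages, gave 2817 and 2534 in the metastasis, against 123 and 125 in the primary, and rose 21.5-fold (4.43 ± 0.09). The lysozyme gene Lyz1 rose by 4.02 ± 0.07. Its sequence is close to that of Lyz2 (3.92 ± 0.71), and probes may not separate them. By contrast the complement C1q genes C1qa, C1qb and C1qc, which many tissue macrophages express, were at 0.41, 0.37 and 0.34 and were not called. Cd163, a haemoglobin scavenger receptor, was at -0.57.

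Of 21 measured T and NK cell genes 11 rose, with a median of 1.36 (1.3 with bounds), and 9 of the 21 were below background in the primary on both arrays. Among the 8 well above background in both RNAs on both arrays 5 rose, with a median of 1.78. Ccl5, a chemokine made by activated T cells, gave 5432 and 5330 in the metastasis, against 614 and 646 in the primary (3.09 ± 0.03). The T cell receptor component gene Cd3g was at least 4.62-fold higher, and Klrd1, an NK receptor gene, rose by 2.59 ± 0.04. The probe for Cd3e stayed near background in both RNAs (-0.06 ± 0.07). In the B lineage 4 of 11 measured genes rose, and 2 of the 5 that were well above background in both RNAs: the antibody joining chain gene Jchain by 4.15 ± 0.31 and the receptor gene Cd79b by 3.36 ± 0.09, with Ms4a1 at least 2.87-fold and Cd22 at least 2.29-fold higher (a call lost with scaling between arrays). Igh-VJ558, a label for a large family of antibody variable segments, was at 4.99 on one probe, while 7 other probes of that label ran from -0.04 to 3.60, so no single value describes it. Haemoglobin genes rose as well, Hbb-bt by 3.84 ± 0.07 and Hba-a1 by 3.02 ± 0.16.

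Interferon response genes rose almost throughout the list: 38 of 41 measured genes rose, none fell, and the median was 2.41, against 8.2% higher and a median of 0.06 among all measured genes. Of the 39 members that were well above background in both RNAs 36 rose. The leading members were GTPases that attack the vacuoles of intracellular pathogens. Igtp, one of these GTPases, gave 7252 and 7345 in the carbon-group metastasis, against 383 and 388 in the unirradiated primary, and rose 18.9-fold (4.24 ± 0.03). Tgtp1, another, gave 5308 and 4945 in the metastasis, against 204 and 190 in the primary, and rose by 4.70 ± 0.14, although another probe assigned to it gave 0.77. Iigp1 gave 4181 and 3845 in the metastasis, against 111 and 127 in the primary. The mitochondrial protein gene Ifi27l2a gave 23520 and 22449 in the metastasis, against 1158 and 931 in the primary (4.47 ± 0.27).

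Genes of each role in the response were among those that rose. Chemokines that draw CXCR3-bearing T cells rose, with Cxcl9 at 3.57 and Cxcl10 8.01-fold higher. Antiviral effectors rose, with the RNA-binding Ifit1 at 3.30, the radical enzyme gene Rsad2 at 2.88 and the ubiquitin-like modifier gene Isg15 at 2.66. Signalling factors rose too, with Irf7 at 2.59, Irf9 at 1.58 and Irf1 at 1.20. The calls of Irf9 and Irf1 were lost with median centring, and that of Irf1 also with scaling between arrays and with the mean of all probes. The uncalled members were the RNA sensor gene Ddx58 (1.43, under 1 on one array), the feedback inhibitor gene Socs1 (1.00) and the kinase gene Eif2ak2 (0.96). Over the same primary, the interferon list had a median of 2.30 in the gamma-group metastasis, with 39 of 41 higher, and 3.08 in the unirradiated metastasis, with 40 of 41 higher. Among all measured genes, 1558 of 17664 were higher in the gamma-group metastasis and 1781 of 17103 in the unirradiated metastasis. In the carbon-irradiated primary over the unirradiated primary the interferon list had a median of 3.31, with 41 of 41 higher. Igtp stood at 6.94 and Iigp1 at 7.44 there, and the share called among all genes is not given for that comparison. All of these comparisons use the RNA of the same unirradiated primary. A low level of the list in that RNA and a high level in the others cannot be told apart from these ratios.

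To show the sequence most of these genes have in common, their promoters were searched for the core of the interferon-stimulated response element, spelled GAAANNGAA, on both strands, in RefSeq windows of 300 bases around each gene's start (GRCm38.p6). A window was held for 29 of the 42 list genes, and 21 of the 29, or 72.4%, contained the core, against 9.76% of the 27025 genes with a window. The 4 members below are those with the highest ratios among members with a match, outside one chromosome that was left out; capitals mark the core or its reverse complement, and the sequences run in the direction of the gene.
Tgtp1, chr11:48992279-48992359, minus strand: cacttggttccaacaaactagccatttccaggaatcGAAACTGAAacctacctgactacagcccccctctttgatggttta
Igtp, chr11:58199486-58199566, plus strand: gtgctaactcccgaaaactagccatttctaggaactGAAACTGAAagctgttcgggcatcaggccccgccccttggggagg
Cxcl9, chr5:92328210-92328290, minus strand: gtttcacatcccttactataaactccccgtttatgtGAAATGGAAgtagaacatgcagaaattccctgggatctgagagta
Ifi44, chr3:151749869-151749949, minus strand: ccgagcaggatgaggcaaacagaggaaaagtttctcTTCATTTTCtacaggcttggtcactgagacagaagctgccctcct
Tgtp1 and Igtp carry the same letters at the core, 77 and 34 bases upstream of the gene's start. Cxcl9 has its match 175 bases upstream, and Ifi44 has the reverse complement 3 bases upstream. A match describes the letters alone, and binding was not measured.

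Antigen presentation genes moved with the list. All 10 measured MHC class II genes rose, with a median of 2.45, and all 10 were well above background in both RNAs. Cd74, the invariant chain, gave 44052 and 50620 in the metastasis, against 6508 and 5391 in the primary, and rose 7.97-fold (2.99 ± 0.05). Ciita, the activator of class II transcription, rose by 2.71 ± 0.15. In class I 13 of 16 genes rose, with a median of 1.57. The immunoproteasome subunit genes Psmb8 and Psmb9 led at 2.65 ± 0.13 and 2.41 ± 0.03, and the heavy chain genes H2-K1 and H2-D1 rose by 1.93 ± 0.01 and 1.86 ± 0.14; heavy chains are near-identical copies that probes may not separate, and the calls of both were lost with median centring in place of loess. The peptide transporter gene Tap1 missed the call at 0.99. Leukocytes express many of the same genes: summed signal of the macrophage list was 398690 and 594980 in the metastasis, against 86809 and 56585 in the primary, and that of the T and NK list was 12368 and 11355 in the metastasis, against 3591 and 3763 in the primary. Their part in the interferon and antigen presentation values was not tested.

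Complement genes rose in 11 of 17 measured cases, with a median of 1.34. Hc, which encodes component C5, gave 23190 and 23158 in the metastasis, against 232 and 224 in the primary, with a ratio of 6.67 ± 0.03. C6, a component of the membrane attack complex, rose by 2.53 ± 0.08. Cfb, of the alternative pathway, rose by 2.48 ± 0.16. Of 22 chemokine genes 7 rose and none fell, with a median of 0.26. Ccl6, a macrophage chemokine, gave 22252 and 22500 in the metastasis, against 817 and 745 in the primary (4.84 ± 0.08). Cxcl12, the ligand of CXCR4, rose by 2.29 ± 0.08. The neutrophil attractant genes Cxcl1 and Cxcl5 were at -1.12 and -0.80, not called, and the monocyte attractant gene Ccl2 was at -0.45 ± 0.47.

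Skeletal muscle genes made up the lower end. Of 34 measured genes 25 fell, against 1.03% among all measured genes, none rose, and the list median was -2.38 (-2.35 with the 7 genes below background in the metastasis set at their bounds). All 34 were well above background in the primary on both arrays and 22 in the metastasis; within those 22 the count was 16 lower. Myl1, a fast muscle myosin light chain, gave 113 and 133 in the carbon-group metastasis, against 4794 and 4777 in the unirradiated primary. Actn3, the fast fibre actinin, gave 132 and 124 in the metastasis, against 2231 and 2138 in the primary, and was 17.1-fold lower (-4.09 ± 0.10). The perinatal myosin gene Myh8 and the fast myosin gene Myh4 were left with more signal in the metastasis: Myh8 read 888 and 604 there, against 12572 and 12542 in the primary. Acta1, the skeletal actin gene, fell by 3.57 ± 0.27 on the log2 scale. The acetylcholine receptor gene Chrna1, at 76 and 99 in the metastasis, against 1155 and 1000 in the primary, fell by 3.63 ± 0.11. Markers of immature fibres were mixed: the myogenic factor gene Myog was at -2.35 and fell, Myod1 was at -0.63, and the embryonic myosin gene Myh3 was at -0.21. Summed list signal was 14872 and 13722 in the metastasis, against 84828 and 82095 in the primary.

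Outside muscle and matrix, the lowest plain-symbol gene was Slc7a3, a cationic amino acid transporter, with 184 and 196 in the metastasis, against 2242 and 2258 in the primary (-3.57 ± 0.07). Growth-linked fetal genes fell in 4 of 7 measured cases. Hmga2, an architectural chromatin protein gene, was 4.79-fold lower (-2.26 ± 0.36) with another probe at -0.24; the imprinted RNA gene H19 was 3.4-fold lower, Rhox5 2.83-fold and the growth factor gene Igf2 2.22-fold lower. The call of Igf2 was lost with median centring, with scaling between arrays and with the mean of all probes. The RNA-binding gene Igf2bp2 was at 0.24 and not called.

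**Figure D3:**
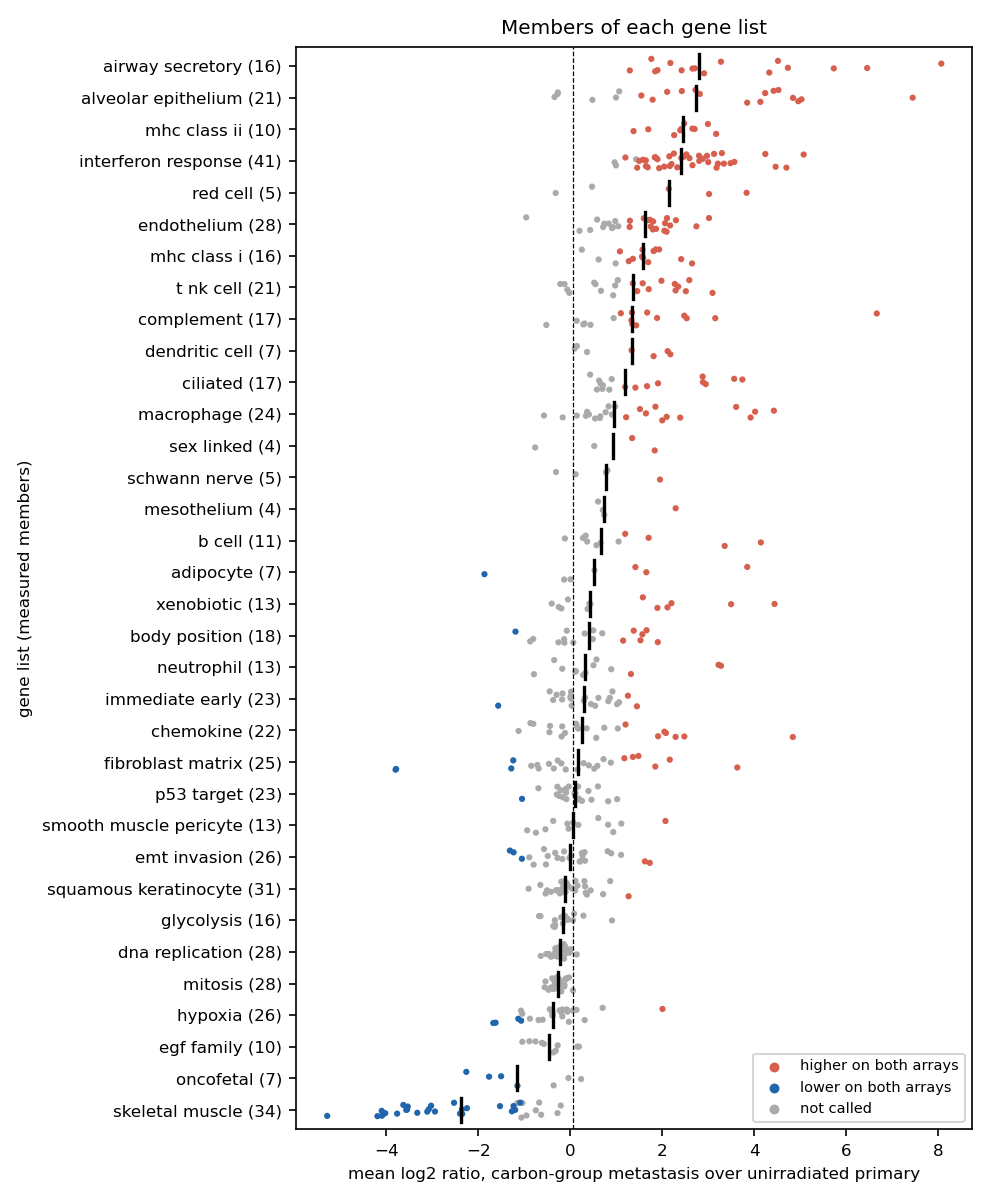
Mean log2 ratio of each measured member of the 34 gene lists in the carbon-group metastasis over the unirradiated primary; points are genes coloured by call, black ticks are list medians, the dashed line is the median of all measured genes, and numbers in brackets count measured members. Airway secretory genes are highest (median 2.81) and skeletal muscle genes lowest (median -2.38), with mitosis and replication genes gathered just below 0.

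Squamous markers defining the labelled tumour type were bright in both RNAs. Of 31 measured keratinocyte and squamous genes 1 rose and none fell, and the median was -0.12. Summed signal was 1396900 and 1191800 in the metastasis, against 1412400 and 1174100 in the primary. Krt5, a basal keratin, gave 183890 and 139600 in the metastasis, against 211190 and 153450 in the primary. Its partner keratin Krt14 gave 259130 and 136890 in the metastasis, against 265190 and 166490 in the primary. These bright probes differed more between dyes than between RNAs, with Krt14 at 0.64 in one orientation and -0.95 in the other. Trp63, the transcription factor of basal squamous cells, was at -0.10 ± 0.02, and the desmosome gene Dsg3 was at -0.42. The exception was Sprr1a, a cornified envelope precursor gene, which gave 1508 and 1469 in the metastasis, against 608 and 627 in the primary (1.27 ± 0.00). Krt7, a keratin of simple epithelia and mesothelium, rose by 2.29 ± 0.04. With median centring in place of loess the calls of Sprr1a and Krt7 were lost.

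Cell cycle genes were also close to equal, with list medians slightly below the 0.06 of all measured genes. None of 28 mitosis genes was called, with values from -0.56 to 0.06 and a median of -0.26, and none of 28 DNA replication genes, with a median of -0.22. The proliferation marker gene Mki67 gave 18139 and 18848 in the metastasis, against 19650 and 20684 in the primary (-0.12 ± 0.09). Of 23 p53 target genes Gadd45a fell (-1.05 ± 0.06), and the cell cycle inhibitor gene Cdkn1a and the p53 ligase gene Mdm2 were at 0.15 ± 0.11 and 0.18 ± 0.05. No EGF family gene of 10 was called, with a median of -0.47. Of 26 mesenchymal transition and invasion genes 2 rose and 3 fell: the metalloproteinase inhibitor genes Timp2 (1.73 ± 0.06) and Timp3 (1.62 ± 0.71) rose, and Mmp10, Twist1 and Twist2 fell by 1.31, 1.05 and 1.23. Of 23 immediate early genes, the stress factor gene Atf3 (1.26 ± 0.12) and the phosphatase gene Dusp2 (1.45 ± 0.38) rose and Ier3 fell by 1.57. Among all measured genes 8.2% rose and 1.03% fell, so the 2 of 26 and 2 of 23 that rose are near the general share. Of these calls, those of Gadd45a, Timp3, Mmp10, Twist1 and Twist2 were lost both with median centring and with scaling between arrays, and those of Timp2, Atf3 and Dusp2 with median centring.

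Hypoxia-induced genes were mostly not called, with a list median below that of all genes. Of 26, all well above background in both RNAs, 4 fell and 1 rose, with a median of -0.38. Among all measured genes 1.03% fell and 8.2% rose, with a median of 0.06. Ero1a, an oxidase of the protein folding pathway, gave 9383 and 9162 in the carbon-group metastasis, against 27447 and 31844 in the unirradiated primary, and was 3.19-fold lower (-1.67 ± 0.13). Stc2, a secreted calcium-regulating hormone gene, was 3.08-fold lower (-1.62 ± 0.02). The oxygen-sensing hydroxylase gene Egln3 (-1.13 ± 0.12) and the pyruvate dehydrogenase kinase gene Pdk1 (-1.07 ± 0.04) fell just past the rule. Pfkfb4, a regulator of glycolysis, rose by 2.01 ± 0.03. The angiogenic factor gene Vegfa (-0.19 ± 0.29) and the carbonic anhydrase gene Car9 (-0.08 ± 0.29) were close to equal. With median centring, and with scaling between arrays, the calls of Egln3 and Pdk1 were lost and 2 genes fell; with the mean of all probes 3 fell, without Pdk1; with the metastasis in Cy3 alone 7 did.

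The core of the hypoxia response element, spelled ACGTG, was present on either strand in the windows of 15 of the 21 hypoxia genes with one, or 71.4%, against 21.8% of all genes with a window. Of the 4 genes that fell, 2 had a match, shown here as examples of the list; capitals mark the core or its reverse complement.
Ero1a, chr14:45318595-45318671, minus strand: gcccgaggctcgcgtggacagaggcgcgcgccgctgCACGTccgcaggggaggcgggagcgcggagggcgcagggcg
Egln3, chr12:54204063-54204124, minus strand: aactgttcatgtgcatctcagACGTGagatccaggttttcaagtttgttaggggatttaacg
The match of Ero1a lies 63 bases upstream of the gene's start and that of Egln3 229 bases upstream.

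The hypoxia list can be set beside the other lung metastases, each over the same primary RNA. Its median was -0.38 in the carbon-group metastasis, with 4 of 26 lower, -0.93 in the gamma-group metastasis, with 11 of 26 lower, and -1.71 in the unirradiated metastasis, with 17 of 26 lower. Among all measured genes, 168 of 16283 were lower in the carbon group. That count was 195 of 17664 in the gamma group and 289 of 17103 in the unirradiated metastasis. Adm, the vessel-dilating peptide adrenomedullin, was at -1.07 ± 0.14 (not called) in the carbon group, -1.52 in the gamma group and -4.70 in the unirradiated metastasis. Egln3 was at -1.13 in the carbon group, -1.25 in the gamma group and -3.90 in the unirradiated metastasis, and Ero1a was at -1.67 in the carbon group, -2.37 in the gamma group and -3.74 in the unirradiated metastasis. The 16 measured glycolysis genes had a median of -0.15 with 0 lower in the carbon group, -0.55 with 1 lower in the gamma group and -1.24 with 7 lower in the unirradiated metastasis. The lactate exporter gene Slc16a3 was at -0.68 in the carbon group, -0.89 in the gamma group and -2.31 in the unirradiated metastasis. Since the 3 comparisons share the primary RNA, and the carbon-group arrays lie on another slide than the other metastases, the values are given side by side without a test, and slide and group cannot be told apart.

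**Figure D4:**
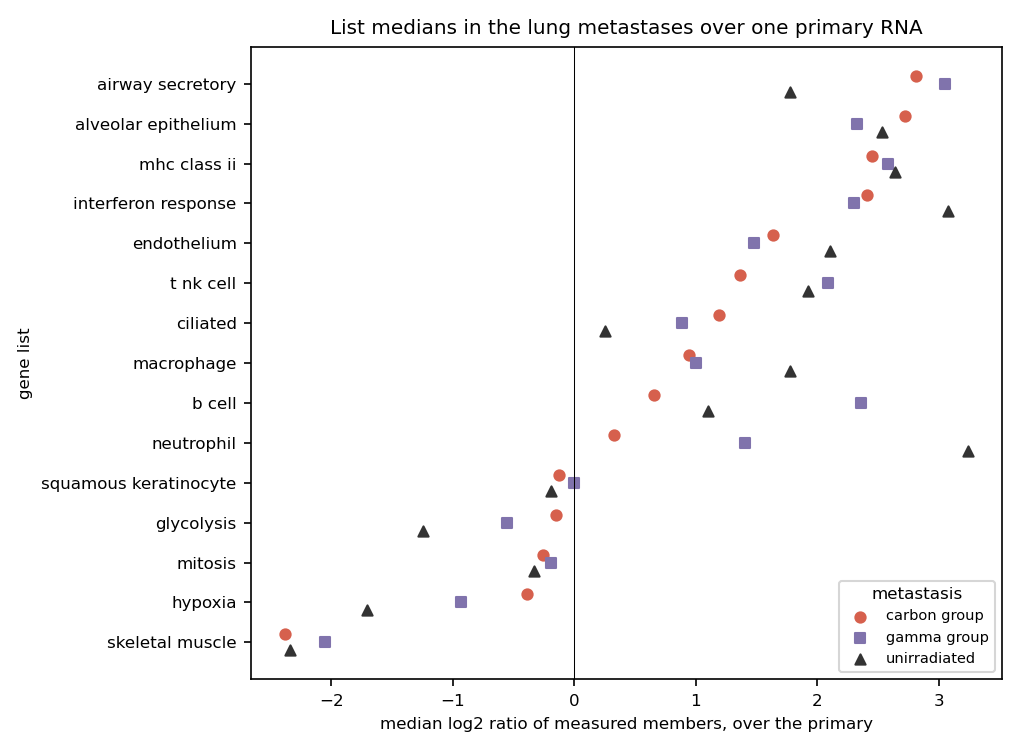
Median log2 ratio of the measured members of 15 gene lists in the carbon-group, gamma-group and unirradiated lung metastases, each over the RNA of the same unirradiated primary. Hypoxia, glycolysis, neutrophil, B cell, airway secretory and ciliated lists are spread out along the axis, while skeletal muscle, keratinocyte and mitosis lists lie close together.

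The neutrophil list had the medians furthest apart among the 15 lists plotted side by side. In the carbon-group metastasis 3 of 13 measured members rose, with a median of 0.33, and 2 of the 10 well above background in both RNAs. In the gamma-group metastasis 9 of 13 rose, with a median of 1.40, and in the unirradiated metastasis 12 of 13, with a median of 3.24. Among all measured genes, 1336 of 16283 rose in the carbon group. That count was 1558 of 17664 in the gamma group and 1781 of 17103 in the unirradiated metastasis. S100a8, a calprotectin subunit, gave 3865 and 3641 in the carbon-group metastasis, against 3146 and 3039 in the primary, a ratio of 0.28 ± 0.10; it was at 3.47 in the gamma group and 5.70 in the unirradiated metastasis. Its partner S100a9 was at 0.89 ± 0.25 in the carbon group, 4.01 in the gamma group and 5.70 in the unirradiated metastasis. These values were below the call in the carbon group and past it in the other metastases. Retnlg, a granulocyte hormone gene, was at 0.57 ± 0.02 in the carbon group, 3.27 in the gamma group and 5.18 in the unirradiated metastasis. The peptide gene Prok2 was at 0.01 ± 0.16 in the carbon group, 2.21 in the gamma group and 2.94 in the unirradiated metastasis. The stefin gene Stfa2l1 was at -1.15 ± 0.40 (not called) in the carbon group, 1.43 in the gamma group and 4.02 in the unirradiated metastasis. S100a8, S100a9, Retnlg, Prok2 and Stfa2l1 were the 5 plain-symbol genes furthest below both other metastases. Their wide gaps follow from that choice, and Prok2 and Stfa2l1 are not members of the neutrophil list. The members that rose in the carbon group were the lactoferrin gene Ltf (3.28 ± 0.02) and the siderophore-binding gene Lcn2 (3.23 ± 0.34), which airway epithelium also makes, and Mmp8, a collagenase of neutrophil granules that was at least 2.38-fold higher.

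**Figure D5:**
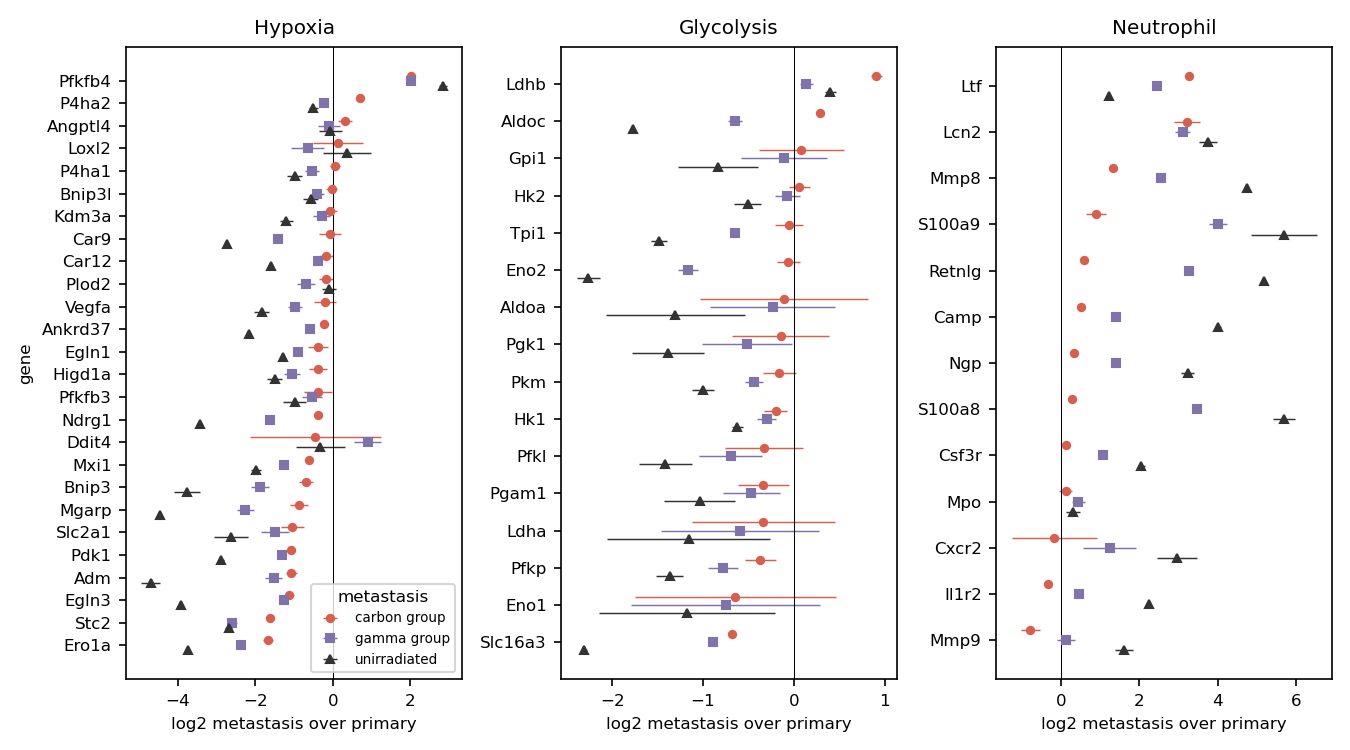
Log2 ratio over the unirradiated primary of each measured hypoxia, glycolysis and neutrophil gene in the carbon-group, gamma-group and unirradiated metastases; points are means and bars the SD over both dye orientations. S100a8 is at 0.28 in the carbon group, 3.47 in the gamma group and 5.70 in the unirradiated metastasis.

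In the other direction, 5 genes stood furthest above both other metastases, and all were called in the carbon group. Hspa1a, an inducible heat shock chaperone gene with a near-identical neighbour, Hspa1b, gave 29816 and 31220 in the carbon-group metastasis, against 5934 and 5203 in the primary; it was at 2.46 ± 0.09 in the carbon group, with other probes at 1.00 and 1.41, and at 0.05 in the gamma group and 0.34 in the unirradiated metastasis. Mid1, a ubiquitin ligase gene of the X chromosome, gave 1347 and 996 in the metastasis, against 229 and 237 in the primary (2.31 ± 0.27), beside 0.17 in the gamma group and 0.22 in the unirradiated metastasis. The potassium channel gene Kcna7 was at 1.71 ± 0.45 in the carbon group, a call lost with median centring, -0.41 in the gamma group and -0.59 in the unirradiated metastasis. Krtap17-1, a hair keratin-associated protein gene, was at least 5.84-fold higher than the primary in the carbon group, and Galnt5, a mucin-type glycosyltransferase gene, at least 3.56-fold. Their ratios in the gamma group were 0.61 and -0.01, and in the unirradiated metastasis 0.70 and -0.04. Among cilia genes, Foxj1 was at 2.88 in the carbon group, 2.69 in the gamma group and 0.40 in the unirradiated metastasis.

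Of 18 measured genes of body position, from the Hox, T-box and limb families, 6 rose, 1 fell and 11 were not called. Of the 18, 5 were below background in the primary on both arrays; among the 10 well above background in both RNAs 3 rose, none fell and the median was -0.0039. Tbx5 and Hoxb5, patterning genes of the lung mesenchyme, were at least 2.88-fold and 2.85-fold higher, Tbx2 rose by 1.66 ± 0.09 and Hoxb2 by 1.91 ± 0.19, while Hoxc9, a gene of more posterior segments, fell by 1.19 ± 0.03. Among genes on the sex chromosomes, the Y-linked Ddx3y gave 618 and 472 in the metastasis, against 218 and 207 in the primary (1.35 ± 0.33), and Eif2s3y gave 1073 and 758 in the metastasis, against 263 and 242 in the primary (1.84 ± 0.44). The calls of Hoxc9 and Ddx3y were lost with scaling between arrays, and that of Ddx3y with median centring too. Xist, the RNA that coats the inactive X chromosome of female cells, was well above background in both RNAs, with 3897 and 3594 in the metastasis, against 5888 and 6841 in the primary (-0.76 ± 0.07, not called). The label gives the mice as male, and the sex of the animal from which the tumour line came is not given in the sources used here. Kdm5d was below background in the primary (0.52, not called), and Uty did not count as measured. Drug-metabolizing genes rose in 6 of 13 measured cases, led by the carboxylesterase gene Ces1d (4.44 ± 0.02) and by Cyp2a5, which was at least 10-fold higher; of the 6 members well above background in both RNAs none was called.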

How the data were processed

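Values are from 2-colour Agilent mouse arrays of design 014868, quantified with Feature Extraction 9.1.3.1, per the file headers. The deposited intensity values are each spot's mean brightness and local background in each channel, not normalized. The processed intensities and the log10 ratio (Cy5 over Cy3) in the deposited files were background-corrected and dye-normalized by Feature Extraction, per the file headers. The authors' table of values holds the same log10 ratios within 0.005. The files also give a p-value per log ratio, made by the scanner software per the file headers, and it was not used. No source used here gives further steps.

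Using R 4.3.3 with limma 3.58.1, background was corrected by normexp (offset 50, which pulls dim ratios toward 0), arrays were normalized by loess, spots of a probe were averaged, and log2 ratios were averaged over both orientations. Channel signals were scaled with Aquantile. The brightest probe stood for a gene. Where an RNA was below background on both arrays, folds are lower bounds against the lowest signal well above background or the probe's own, whichever was higher. The call rule was tested on simulated data. Names came from a RefSeq table (GRCm38.p6).

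The labels give 1 RNA per group. Named genes were the 15 highest and 15 lowest called, leading and first members of each of 34 lists, the 5 furthest above and 5 below both other metastases, and the sex-linked genes; others named are list members given for their role. Members and lists were chosen with earlier results of these data known. Alternatives changed background offset, normalization, source of ratios, dim-probe filter, probe rule, threshold and array.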

Additional observations from a re-analysis of the deposited data

Results flagged for a closer look

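Among genes with plain symbols, 3 were called in the carbon-group metastasis and called in the opposite direction in another lung metastasis over the same primary RNA. The difference was not tested, since each group has 1 RNA. Mela was at -2.27 in the carbon-group metastasis (-2.26 with the metastasis in Cy5 and -2.28 in Cy3), against 4.27 in the gamma-group metastasis (4.42 in Cy5 and 4.11 in Cy3). Ncam1, a neural cell adhesion molecule gene, was at -1.29 in the carbon-group metastasis (-1.19 in Cy5 and -1.39 in Cy3), against 1.22 in the unirradiated metastasis (1.35 in Cy5 and 1.10 in Cy3). Cited4, a transcriptional co-activator gene, was at 1.24 in the carbon-group metastasis (1.27 in Cy5 and 1.21 in Cy3), against -1.12 in the unirradiated metastasis (-1.12 in Cy5 and -1.11 in Cy3). The carbon-group call of Ncam1 was lost with median centring, scaling between arrays and the mean of all probes, and that of Cited4 with median centring.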

How the results depend on the processing

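Genes higher numbered 1336, and 2096 with Agilent's processed log ratio, 2093 with the authors' value table and 396 at 4-fold. Genes lower numbered 168, and 296 with a normexp offset of 0, 518 with Agilent's log ratio, 516 with the authors' table, 47 at 4-fold and 259 with the metastasis in Cy5 alone. The cause was not tested. At 4-fold 5 endothelial genes stayed higher. With both RNAs required above background 16 muscle genes were lower. Hypoxia genes lower numbered 2 with median centring, 2 with scaling between arrays, 0 at 4-fold and 7 with the metastasis in Cy3 alone. Airway, alveolar, interferon and MHC class II counts of higher genes stayed within 1.5 times of the reported ones under every alternative.

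Of 156 called genes chosen by rule or named in the text, none changed direction; 27 lost the call with median centring, 16 with scaling between arrays and 4 with the mean of all probes. None lost it under the other alternatives at the same threshold, where 126 of the 156 had both RNAs above background. Median centring put the median of all genes at -0.11 and Agilent's log ratio at -0.04, against 0.06. Of 13 list medians of at least 1 in size, none changed sign and 4 came under 1 under some alternative. No paired analysis was possible because each group has 1 RNA. The number of arrays, 2, and signal near background limit precision, and the spread between animals is unknown.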
